A study of Mus musculus with 8 samples.

Results

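The 10 genes described here encode lysosomal proteins, chiefly ones that carry small molecules across the lysosomal membrane or that read nutrients there. They are *Ctns*, *Slc38a9*, *Slc36a1*, *Slc15a4*, *Slc29a3*, *Npc1*, *Npc2*, *Cln3*, *Mcoln1* and *Laptm4a*. *Ctns* was picked from these data for its lower level in Rragc S74N/+ livers, and the other 9 were selected by their known role in export from the lysosome or in nutrient sensing at its surface. All 10 were among the 14506 genes listed, and all 10 were among the 11174 genes that were tested because their mean over the livers was at least 10 normalized reads.

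RNA was sequenced from whole livers of 8 C57BL/6 mice, 4 of them Rragc S74N/+ and 4 Rragc +/+, labelled RagC S74N (KI/+) and RagC S74N (+/+). Rragc S74N/+ mice carry, in every cell and on 1 allele, a substitution in the GTPase RagC that was introduced with Cas9 together with silent changes, and Rragc +/+ mice carry none. Mice of both genotypes ate standard chow and received no agent, and the comparison asked whether mutant organs differ in their RNA at a young age. The Rragc +/+ mice were 3 months old except replicate 4, which was 2.5 months old, and Rragc S74N/+ replicates 1 to 4 were 3, 3, 2.5 and 2 months old. The sex of each mouse and the time of day of killing are not given in the labels, and replicate numbers only name a liver. The libraries held 4313076 to 6632108 reads in listed genes, all 10 hepatocyte markers were detected in each, and any 2 libraries differed by more than sampling noise (chi-square of 14.6 to 101 per degree of freedom). *Rragc* itself averaged 84.1 ± 20.4 normalized reads without the edited allele and 76.6 ± 7.32 with it (SD, n = 4 each), and counts from the 3′ end of the transcript do not show the substitution.

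The lysosome breaks down proteins, lipids and nucleic acids, and its membrane transporters return the products to the cytoplasm. Rag GTPases sit on the outer face of that membrane, held by the Ragulator complex, and bring the kinase complex mTORC1 to it when amino acids are plentiful. The amino acid transporter SLC38A9 binds this machinery and reports lysosomal arginine, and NPC1 has been tied to its response to cholesterol. Active mTORC1 keeps the transcription factors TFEB and TFE3 in the cytoplasm, whereas in the nucleus they bind a short palindrome near the starts of many lysosomal genes. In the liver, hepatocytes, Kupffer cells and endothelial cells all hold lysosomes, and in bulk tissue fewer cells of a type and less RNA per cell cannot be told apart.

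The palindrome bound by TFEB and TFE3 was searched as TCACGTGA on both strands, together with the shorter E-box CACGTG that it contains. The search covered the RefSeq promoters on GRCm38.p6 of 9 genes. *Npc1* was left out and its promoter was not searched, so the count says nothing about that gene. The palindrome was found near a RefSeq start of 3 of the 9 genes, namely *Slc36a1*, *Mcoln1* and *Cln3*. For *Laptm4a* the searched bases, chr12:8921057-8921356 (plus strand), ended before the GENCODE start at 8921664. For *Slc15a4* they were chr5:127617343-127617642 (minus strand), inside the gene, whose GENCODE start is at 127632897. The sequence around these GENCODE starts was not searched, so the count says nothing about it. In the same table of promoters, each 300 bases with 250 before and 50 after the start, 1.12% of 27025 genes held TCACGTGA near at least 1 start and 8.09% held CACGTG. Counted over the 32851 promoters, the shares were 0.974% and 7.15%. The promoters of these 3 genes and of *Ctns* are printed 5′ to 3′ in the direction of transcription. This sets the genes that hold the palindrome beside the gene with the lowest ratio between the genotypes. Capitals mark TCACGTGA. They lie at chr11:55204090-55204389 (plus strand) for *Slc36a1*, chr8:3500269-3500568 (plus strand) for *Mcoln1*, chr7:126583187-126583486 (minus strand) for the second start of *Cln3* and chr11:73198970-73199269 (minus strand) for *Ctns*.
Slc36a1: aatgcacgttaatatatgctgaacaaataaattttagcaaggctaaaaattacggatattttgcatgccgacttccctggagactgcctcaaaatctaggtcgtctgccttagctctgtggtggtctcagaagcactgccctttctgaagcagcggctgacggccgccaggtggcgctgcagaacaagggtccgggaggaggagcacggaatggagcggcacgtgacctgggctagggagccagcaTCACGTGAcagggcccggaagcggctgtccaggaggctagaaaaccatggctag
Mcoln1: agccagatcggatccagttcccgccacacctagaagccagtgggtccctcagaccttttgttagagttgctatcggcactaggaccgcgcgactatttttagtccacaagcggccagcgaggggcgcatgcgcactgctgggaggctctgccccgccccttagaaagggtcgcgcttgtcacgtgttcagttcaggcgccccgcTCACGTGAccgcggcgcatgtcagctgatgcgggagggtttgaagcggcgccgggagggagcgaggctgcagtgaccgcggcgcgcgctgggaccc
Cln3: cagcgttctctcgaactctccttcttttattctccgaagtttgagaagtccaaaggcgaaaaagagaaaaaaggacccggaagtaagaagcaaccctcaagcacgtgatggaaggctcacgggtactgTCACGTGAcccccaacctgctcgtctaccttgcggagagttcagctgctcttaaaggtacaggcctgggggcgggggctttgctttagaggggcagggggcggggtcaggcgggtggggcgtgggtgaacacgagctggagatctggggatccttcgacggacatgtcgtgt
Ctns: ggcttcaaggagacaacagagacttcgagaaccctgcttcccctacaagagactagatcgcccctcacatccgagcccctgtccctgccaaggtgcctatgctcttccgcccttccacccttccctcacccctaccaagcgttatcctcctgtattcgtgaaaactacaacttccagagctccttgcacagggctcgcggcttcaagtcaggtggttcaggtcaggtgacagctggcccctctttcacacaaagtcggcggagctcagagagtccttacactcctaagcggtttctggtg

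In *Slc36a1* the palindrome began 4 bases upstream of the start, in *Mcoln1* 46 bases upstream and in *Cln3* 122 bases upstream. Each of these windows held 2 copies of CACGTG, 1 of them inside the palindrome. The first start of *Cln3*, which lies upstream of the printed one, held neither motif, and both *Ctns* starts held neither. A match is a stretch of letters and not a measured binding site. In these livers *Mcoln1* and *Cln3* had lower means in Rragc S74N/+ and *Slc36a1* a higher one, and none of the 3 passed the adjusted threshold.

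The levels of the 10 genes fell into a high and a low class, and their order was led by *Npc2*. Libraries were made from the 3′ end, so a count does not scale with transcript length, and normalized counts of different genes were set side by side. Other differences between genes in how reads are captured and counted were not checked. Mean log2 levels over the 8 livers ran in the order *Npc2*, *Laptm4a*, *Npc1*, *Slc15a4*, *Ctns*, *Slc29a3*, *Cln3*, *Slc38a9*, *Mcoln1* and *Slc36a1*. The first 3 genes kept their places in each genotype, and the lower ones did not. In Rragc +/+ livers *Ctns* stood above *Slc15a4* and *Mcoln1* above *Slc38a9*, whereas in Rragc S74N/+ livers *Slc38a9* stood above *Cln3*, *Cln3* above *Slc29a3* and *Mcoln1* came last. *Npc1* was above *Slc15a4* in 8 of 8 livers, by 2.26 ± 0.67 on the log2 scale (mean ± SD), and *Laptm4a* was above *Npc1* in 7 of 8, by 1.18 ± 0.73. In an exact two-sided sign-flip permutation test over livers these steps gave p = 0.00781, the smallest that 8 livers allow, and p = 0.0156, and both had an adjusted p of 0.0547 over the 7 neighbouring pairs tested. No neighbouring pair therefore passed 0.05 after adjustment, and pairs with *Ctns* were not tested. A lone pair at the smallest p that 8 livers allow has an adjusted p of 0.0547 in this test. The threshold was thus out of reach for any single step, whatever its size. *Npc2* was above *Laptm4a* in 5 of 8 livers (0.29 ± 0.49, adjusted exact p = 0.383). Among the low genes, the step from *Slc29a3* to *Cln3* was 0.07 ± 0.48 and that from *Cln3* to *Slc38a9* 0.14 ± 0.59, both with an adjusted exact p of 0.711. The steps from *Slc38a9* to *Mcoln1* (0.39 ± 0.77) and from *Mcoln1* to *Slc36a1* (0.25 ± 1.80) were also smaller than their spread.

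**Figure D1:**
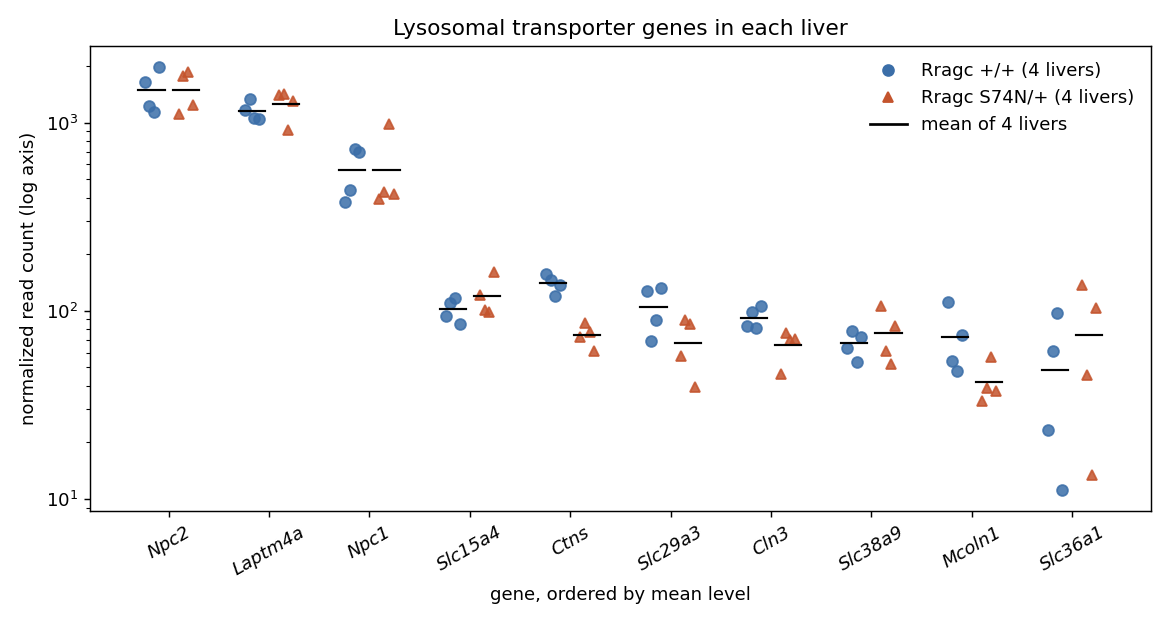
Normalized read count of each gene (log axis) in 4 Rragc +/+ livers (circles) and 4 Rragc S74N/+ livers (triangles), with bars at the mean of 4 livers and genes ordered by mean level. *Npc2*, *Laptm4a* and *Npc1* lie above the other 7 genes in every liver, the *Ctns* and *Cln3* points of the genotypes do not overlap, and *Slc36a1* spans 11.2 to 137.

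*Ctns* (ENSMUSG00000005949.9, chr11:73183596-73199042 on GRCm38, minus strand) encodes cystinosin, which exports cystine from the lysosome together with protons and whose loss causes cystinosis. Its normalized count was 157, 146, 120.2 and 137 across Rragc +/+ mice (replicates 1 to 4), while Rragc S74N/+ mice gave 72.5, 86.2, 76.9 and 61.2 (replicates 1 to 4). The lowest Rragc +/+ liver was above the highest Rragc S74N/+ liver, and the means were 140.0 ± 15.4 and 74.2 ± 10.4 (SD, n = 4 each), a ratio of 0.530. This separation is what the gene was picked for, and it is described with no test. The values rested on 85 to 168 reads per library in Rragc +/+ and 69 to 97 in Rragc S74N/+.

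The same *Ctns* values on other scales and in subsets of the mice are a description too, since the gene was picked on them. The ratio between genotypes was 0.532 after TMM rescaling and 0.557 when each library was scaled by its recovered reads. Among the 3-month-old mice the means were 141 in Rragc +/+ and 79.4 in Rragc S74N/+, and the 2.5-month-old mice of each genotype had 137 and 76.9. Leaving out any 1 liver gave a log2 difference between -0.99 and -0.82, around -0.91 with all livers.

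Other RNAs differed between the genotypes in the same livers. The only gene past an adjusted p of 0.05 in the limma fit over all genes was *Gpx3*, a secreted glutathione peroxidase made mainly in the kidney tubule, at 166 ± 28.3 in Rragc +/+ and 42.4 ± 9.997 in Rragc S74N/+ (log2 fold change -1.95, adjusted p = 0.0411, n = 4 each). Of 17 kidney tubule markers 9 were listed, with a summed level of 266 to 422 in Rragc +/+ and 89.2 to 153 in Rragc S74N/+, and 2 of the 4 tested, *Gpx3* and *Kap*, were lower in Rragc S74N/+ without overlap, as were 1.64% of all tested genes. The tubule carriers *Slc12a1* and *Slc12a3* were each at 0 in 4 livers and *Slc34a1* in 2, and *Cubn*, *Slc22a6*, *Slc5a2* and *Umod* were among the 8 markers not analysed here. The tubule genes *Miox* (12.6 ± 8.45 and 1.79 ± 2.60) and *Napsa* (13.8 ± 7.75 and 7.91 ± 5.0) also had lower means in Rragc S74N/+, with overlap, while *Slc34a1* (8.17 ± 5.93 and 8.90 ± 6.55), *Slc12a1* and *Slc12a3* did not. *Spp1*, also on the cholangiocyte list, was the 1 tested tubule marker with a log2 fold change above 0 (23.3 ± 11.7 and 29.5 ± 10.9). In Rragc +/+ livers *Gpx3* and *Kap* made up most of the summed tubule level. Of 8 exocrine pancreas markers 1 was listed, *Cela1*, at 233 to 434 in Rragc +/+ and 92.2 to 240 in Rragc S74N/+. Of 6 B and plasma cell markers, *Igkc* alone did not overlap (57.1 ± 15.3 and 141 ± 26.6), and it was the largest part of the summed level of 82.3 to 142 in Rragc +/+ and 190 to 280 in Rragc S74N/+. Kidney tissue also expresses *Ctns*, and the part of these RNAs in its difference was not tested. Kupffer cell markers, all 12 tested, summed to 3183 to 4891 and 3170 to 5177, and the 8 sinusoidal endothelial markers to 1184 to 1541 and 1216 to 1547, so both sums overlapped between genotypes. Within the Kupffer list *Marco* was higher without overlap (22.2 ± 2.33 and 88.9 ± 39.2), as were 1.3% of all tested genes. *Cd163* was lower without overlap (68.7 ± 34.6 and 33.0 ± 9.94), by a gap of 42.4 to 43.0. Of 8 stellate cell markers, *Ecm1* alone did not overlap, and it was lower in Rragc S74N/+ (354 ± 69.5 and 225 ± 44.5). All listed hepatocyte, cholangiocyte, T cell and neutrophil markers overlapped between genotypes.

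None of the 9 genes selected by role passed an adjusted p of 0.05, where 0.00895% of all tested genes did. At an unadjusted p under 0.05 there was 1 of the 9, *Mcoln1*, beside 5.17% of all tested genes. Lower levels without overlap in Rragc S74N/+ were seen for 2 of 10 genes, *Ctns* and *Cln3*, beside 1.64% of all tested genes, and for 1 of the 9 once *Ctns* is set aside. *Cln3* is thus the only gene without overlap that was selected by role, although the 10 genes were chosen with earlier results of these data known. The log2 fold change was below 0 for 6 of 10 genes and for 5 of the 9, beside 48.7% of all tested genes. Its median was -0.04 over the 10, -0.00 over the 9 and 0.01 over all tested genes. The 9 genes stood on both sides of 0.

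**Figure D2:**
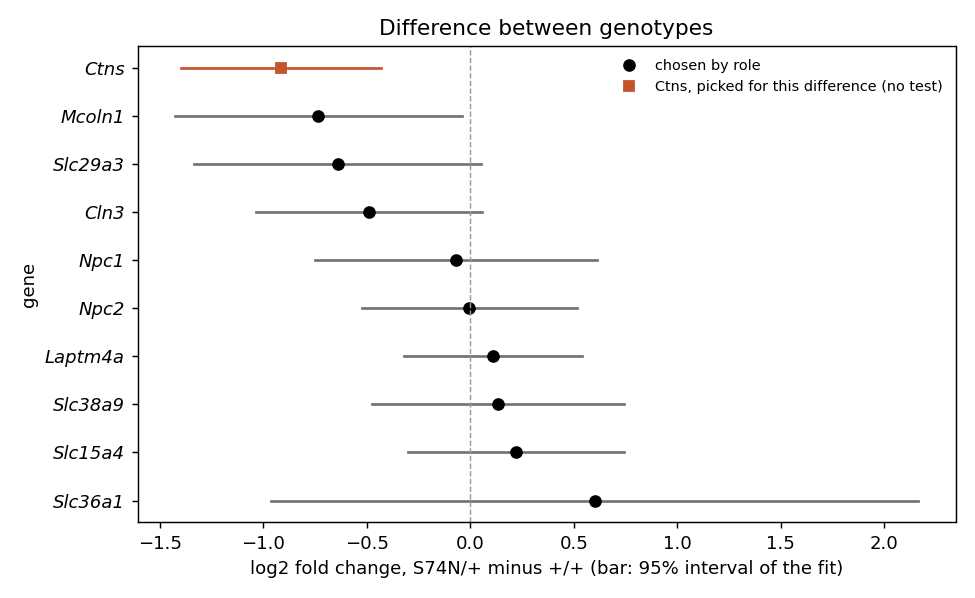
Log2 fold change (S74N/+ minus +/+) of each gene on the log2(normalized count + 1) scale, with bars for the 95% interval of the limma fit (4 livers each). *Ctns* (square) is at -0.91 and was picked for this difference, so its bar is no test. Among the genes selected by role, only *Mcoln1* has an interval on 1 side of 0 (-1.43 to -0.04), and the interval of *Slc36a1* is the widest of the 10 (-0.96 to 2.16).

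The remaining amino acid transporters had higher means in Rragc S74N/+ livers, within the spread between mice. *Slc38a9* (chr13:112660751-112738749, plus strand) encodes the arginine-sensing partner of the Rag GTPases. It had 63.4, 78.6, 53.8 and 72.9 normalized reads for replicates 1 to 4 of Rragc +/+, compared with 107, 61.3, 52.4 and 83.2 for replicates 1 to 4 of Rragc S74N/+. The highest value was in Rragc S74N/+ and so was the lowest, and the log2 fold change was 0.13 (SE 0.28, interval -0.47 to 0.74, limma adjusted p = 0.921). A processed pseudogene lies in the same interval on the same strand, and reads could have been shared with it.

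*Slc15a4* (chr5:127595664-127632897, minus strand) carries histidine and short peptides out of the endolysosome and is best known in immune cells. Its normalized count was 94.2, 110.4, 117 and 85 in the 4 Rragc +/+ livers (replicates 1 to 4), against 121, 101, 98.1 and 161 in the 4 Rragc S74N/+ livers (replicates 1 to 4). The groups overlapped, with the highest 2 values both in Rragc S74N/+, and the log2 fold change was 0.22 (SE 0.24, interval -0.30 to 0.74, limma adjusted p = 0.858).

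*Slc36a1* (chr11:55204350-55236330, plus strand) encodes a proton-coupled exporter of small neutral amino acids such as glycine and proline, and it was the most variable of the 10 genes. Its normalized count was 23.3, 60.8, 97.6 and 11.2 across Rragc +/+ mice (replicates 1 to 4), while Rragc S74N/+ mice gave 137, 45.3, 13.4 and 104 (replicates 1 to 4). The highest liver exceeded the lowest by 8.71 times within Rragc +/+ and by 10.2 times within Rragc S74N/+. Both genotypes thus held livers with very little and with much of this transcript, and the log2 fold change of 0.60 had an interval of -0.96 to 2.16 (SE 0.72, limma adjusted p = 0.872). Its within-genotype standard deviation was 1.41 on the log2 scale, at percentile 97.6 of the tested genes. The lowest libraries held 12 reads each, so counting error adds to their spread.

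The liver-to-liver pattern of *Slc36a1* was shared with many transcripts. After the mean of each genotype was subtracted, 624 genes had a Pearson correlation with it of at least 0.9 over the 8 livers and 316 one of -0.9 or less, together 8.41% of 11173 genes. The same share was 0.689% for the median tested gene, 0.931% for *Ctns* and 4.92% for *Npc2*. These correlations describe 8 livers whose values share a library, and carry no test.

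The mice aged 2.5 months, Rragc +/+ replicate 4 and Rragc S74N/+ replicate 3, had the lowest *Slc36a1* of all livers, and some genes of the circadian clock stood apart in the same livers. The clock genes were looked at after the values of *Slc36a1* had been seen. Of 5 listed clock genes that peak near dusk, 4 were higher in both of these livers than in any other, namely *Nr1d1*, *Nr1d2*, *Dbp* and *Per3*. *Nr1d1*, a clock repressor, was at 734 and 846 against 154 to 389.7 in the others, and *Dbp*, a clock output, at 57.9 and 126 against 3.74 to 11.3. Of 5 listed clock genes that peak near dawn, only 1 was lower in both than in any other liver, the activator *Arntl*, at 21.5 and 20.1 against 56.6 to 146. *Clock*, also on the dawn list, had its highest value in Rragc +/+ replicate 4 (395), and *Cry1* was in the middle of its range in both (101 each). No other mouse was 2.5 months old, so age and these clock gene levels cannot be told apart here, and their part in the spread of *Slc36a1* was not tested.

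**Figure D3:**
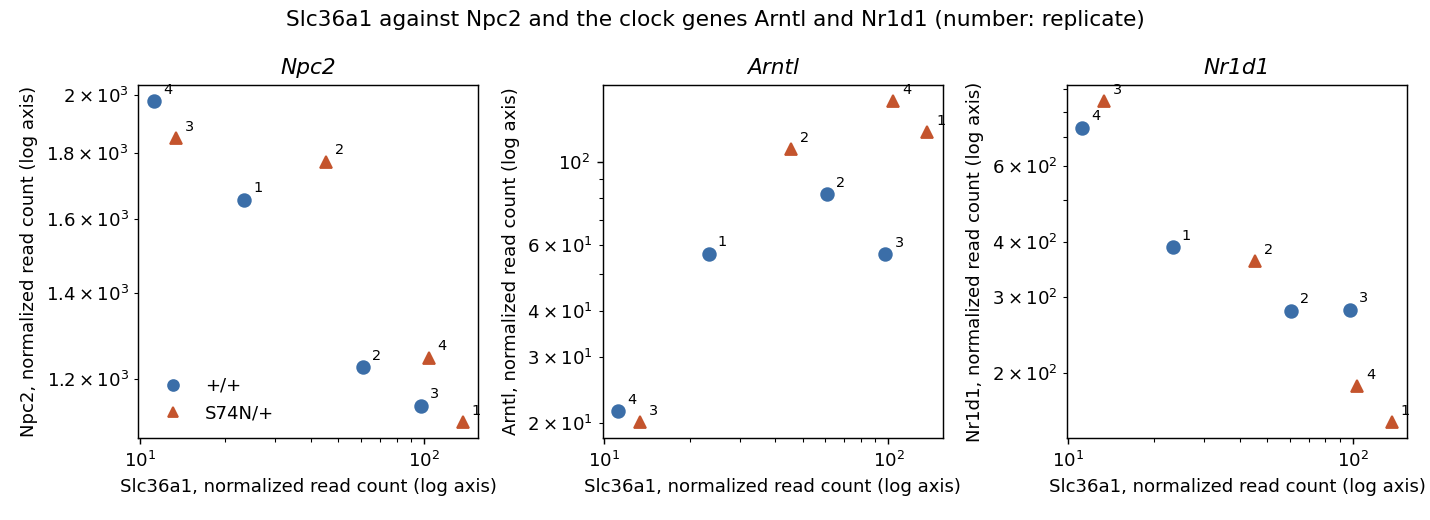
Normalized read count of *Slc36a1* (x, log axis) against *Npc2*, *Arntl* and *Nr1d1* (y, log axes) in the 8 livers, with circles for Rragc +/+, triangles for Rragc S74N/+ and the replicate number beside each. Rragc +/+ replicate 4 and Rragc S74N/+ replicate 3 lie at the low end of *Slc36a1* (11.2 and 13.4), with the lowest *Arntl* (21.5 and 20.1) and the highest *Nr1d1* (734 and 846).

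The carriers of lipids did not separate the genotypes. NPC2 is a soluble protein of the lysosomal lumen that hands cholesterol to NPC1 in the membrane, and loss of either gene causes Niemann-Pick disease type C. *Npc2* (chr12:84754562-84773152, minus strand) was the most abundant of the 10, with 1657, 1226, 1144 and 1977 normalized reads for replicates 1 to 4 of Rragc +/+, compared with 1111, 1773, 1849.9 and 1247 for replicates 1 to 4 of Rragc S74N/+. Each genotype had 2 higher and 2 lower livers over the same span, and the means were 1501 ± 389 and 1495 ± 371 (log2 fold change -0.00, SE 0.24, interval -0.52 to 0.52, limma adjusted p = 0.998).

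*Npc1* (chr18:12189692-12236400, minus strand) had 378, 441, 729 and 698 normalized reads in the 4 Rragc +/+ livers (replicates 1 to 4), against 395, 430.2, 988 and 420.1 in the 4 Rragc S74N/+ livers (replicates 1 to 4). Rragc S74N/+ replicate 3 stood above every other liver, and the remaining 3 Rragc S74N/+ livers lay within 395 to 430.2. The log2 fold change was -0.07 (SE 0.32, interval -0.75 to 0.62, limma adjusted p = 0.967), and without that liver it was -0.38. *Npc1* and *Npc2* act in 1 pathway, but their levels followed each other only loosely over the livers (Pearson 0.37 within genotype, n = 8).

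*Slc29a3* (chr10:60712072-60752794, minus strand) encodes an exporter of nucleosides, the end products of nucleic acid breakdown. Its normalized count was 127, 69.2, 89.1 and 132 across Rragc +/+ mice (replicates 1 to 4), while Rragc S74N/+ mice gave 57.8, 88.9, 84.7 and 39.2 (replicates 1 to 4). All 4 Rragc S74N/+ values were below the Rragc +/+ median, although the groups overlapped. The log2 fold change was -0.64 (SE 0.32, interval -1.33 to 0.05) and the limma adjusted p was 0.846.

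*Mcoln1* (chr8:3500457-3515232, plus strand) encodes TRPML1, a cation channel that releases calcium from the lysosome and feeds back on TFEB. It had 112, 54.2, 48.1 and 74.7 normalized reads for replicates 1 to 4 of Rragc +/+, compared with 33.1, 39.1, 56.8 and 37.5 for replicates 1 to 4 of Rragc S74N/+. Again all 4 Rragc S74N/+ livers were below the Rragc +/+ median, with 1 of them, replicate 3, above 2 Rragc +/+ livers. Its log2 fold change of -0.73 (SE 0.32, interval -1.43 to -0.04) had an unadjusted limma p of 0.0402 and an adjusted p of 0.846.

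*Cln3* (chr7:126571207-126585817, minus strand) is the gene of juvenile Batten disease, and its product is needed to clear glycerophosphodiesters, breakdown products of membrane lipids. Its normalized count was 83.0, 98.2, 80.6 and 106 in the 4 Rragc +/+ livers (replicates 1 to 4), against 45.9, 76.4, 70.2 and 71.0 in the 4 Rragc S74N/+ livers (replicates 1 to 4). The groups did not overlap, with a gap between 76.4 and 80.6. The log2 fold change was -0.49 (SE 0.25, interval -1.04 to 0.06), and the limma adjusted p of 0.846 did not pass.

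*Laptm4a* (chr12:8921664-8938742, plus strand) encodes a small multispanning protein of lysosomes and late endosomes. It had 1169, 1335, 1064 and 1048 normalized reads across Rragc +/+ mice (replicates 1 to 4), while Rragc S74N/+ mice gave 1398, 1423, 917 and 1297 (replicates 1 to 4). Both the lowest value and the highest were in Rragc S74N/+. The log2 fold change was 0.11 (SE 0.20, interval -0.32 to 0.54, limma adjusted p = 0.910), the narrowest interval of the 10.

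The 10 genes did not vary as 1 block from liver to liver. Of their 45 pairs, the strongest relation was between *Slc36a1* and *Npc2*, in opposite directions (Pearson -0.95 of deviations from the genotype means, Spearman -0.90, n = 8 livers, -0.99 to -0.93 when each liver was left out). *Slc36a1* varied with *Slc15a4* (0.81) and against *Mcoln1* (-0.79). *Slc15a4* and *Slc29a3* were opposed (-0.93, Spearman -0.90), so that Rragc S74N/+ replicate 4 had the most *Slc15a4* and the least *Slc29a3* of all livers. *Npc1* and *Laptm4a* were opposed by Pearson (-0.90) but less by rank (Spearman -0.55), with Rragc S74N/+ replicate 3 at the top of the former and the bottom of the latter. *Ctns* moved most with *Slc29a3* (0.67) and against *Slc15a4* (-0.77). All these values share the same 8 libraries and are descriptions.

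**Figure D4:**
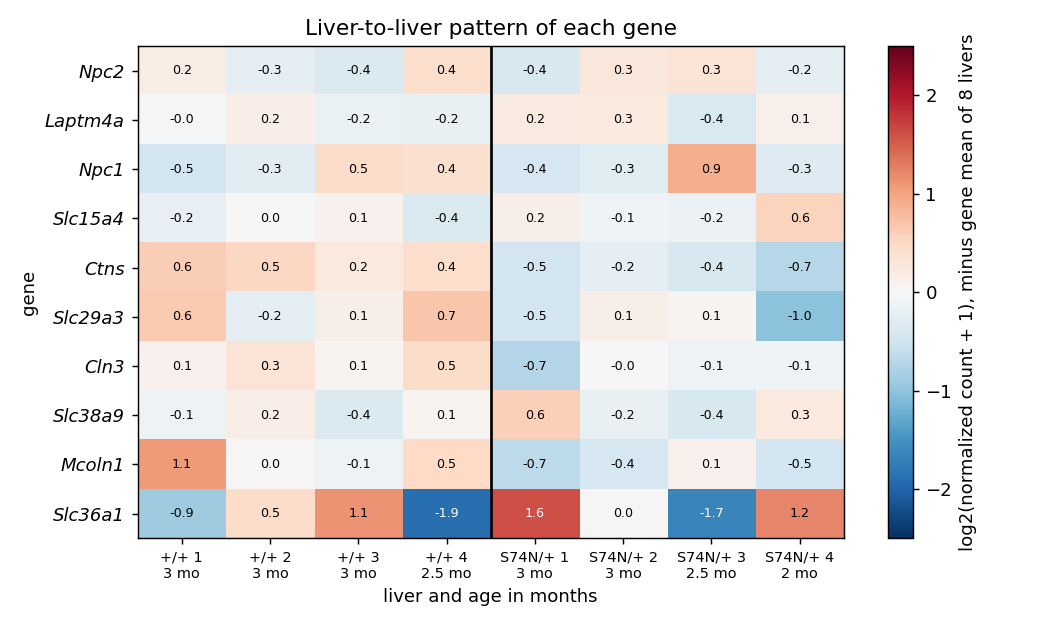
Log2(normalized count + 1) of each gene in each liver, minus the gene's mean over the 8 livers (red above, blue below), with the 4 Rragc +/+ livers left of the line and ages in months under each liver. *Ctns* is above its mean in all Rragc +/+ and below it in all Rragc S74N/+ livers, and *Slc36a1* has the strongest colours within both genotypes.

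Among the genes with the pattern most like that of *Ctns* within the genotypes were *Ckb* (Pearson 0.98), *Sco1* (0.97), *Mapre1* (0.97) and *Habp4* (0.97), over 8 livers. The most opposed were *Trak2* (-0.97), the lysosomal protease gene *Ctsb* (-0.96), *Tdo2* (-0.95), *Cps1* (-0.95) and *Gc* (-0.95). None of these 9 passed the adjusted threshold between genotypes. *Ckb* averaged 76.1 in Rragc +/+ and 96.1 in Rragc S74N/+, and *Ctsb* 1187 and 1265, so both had higher means where *Ctns* was lower.

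The wider set of lysosomal transporters was divided in direction. Of 45 other lysosomal membrane transporters and channels, 37 were tested, 3 were below the filter and 5 were not analysed here. None of the 37 passed the adjusted threshold (smallest limma adjusted p 0.846), 23 had a log2 fold change below 0 and 14 above, and the median was -0.07 beside 0.01 over all tested genes. At an unadjusted p under 0.05, where 5.17% of all tested genes were found, there was 1 of the 37, *Glmp*, an accessory subunit of a lysosomal transporter of dipeptides, which averaged 152 ± 44.2 in Rragc +/+ and 219 ± 13.6 in Rragc S74N/+ (log2 fold change 0.57, SE 0.24, limma adjusted p = 0.846). The lowest log2 fold change was -0.86 (SE 0.66) for *Abcb9*, a lysosomal peptide transporter with 3 to 21 reads per liver. The highest was 1.13 (SE 0.60) for *Slc11a1*, a metal transporter of macrophages with 5 to 51 reads per liver. Without overlap, no gene of this list was lower in Rragc S74N/+, beside 1.64% of all tested genes, and 1 was higher, beside 1.3%, the low-abundance *Slc36a4* (10.9 ± 2.13 and 21.2 ± 7.13).

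**Figure D5:**
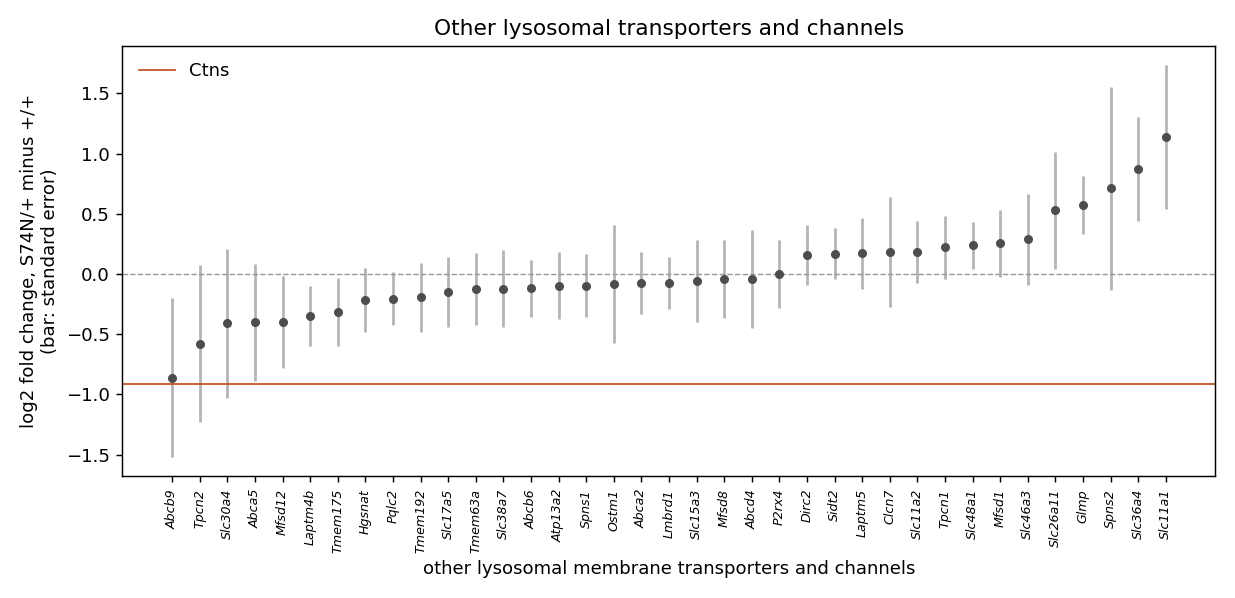
Log2 fold change (S74N/+ minus +/+) of the 37 other lysosomal transporters and channels tested, in order, with bars for the standard error of the limma fit and a line at the value of *Ctns*. They run from -0.86 (*Abcb9*) to 1.13 (*Slc11a1*). *Ctns*, at -0.91, was picked for its lower level, so the place of other genes above its line is no test.

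Genes that work beside these transporters were examined in the same fit. Of 17 tested genes of lysosomal cholesterol handling, none passed the adjusted threshold and 7 were below 0 and 10 above (median log2 fold change 0.06). *Tmem97*, a regulator of NPC1 protein, had 788 ± 230.0 normalized reads in Rragc +/+ and 532 ± 138 in Rragc S74N/+ (log2 fold change -0.56, SE 0.26, unadjusted p = 0.0476, limma adjusted p = 0.846). Of 18 tested surface partners of nutrient sensing, 11 were below 0 and 7 above (median -0.07), and none passed.

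In that last list 2 of the 18 had an unadjusted limma p under 0.05, *Tfeb* and *Pip4p1*, beside 5.17% of all tested genes. *Tfeb*, the transcription factor gene, had 88.6, 44.9, 59.4 and 56.1 normalized reads for replicates 1 to 4 of Rragc +/+, compared with 33.1, 43.5, 27.9 and 33.4 for replicates 1 to 4 of Rragc S74N/+. The groups did not overlap, by a gap of 43.5 to 44.9, and the log2 fold change was -0.81 (SE 0.30, unadjusted p = 0.0181, limma adjusted p = 0.846). *Pip4p1*, a phosphatase of the late endosome and lysosome also known as *Tmem55b*, had 277 ± 63.2 and 179 ± 35.8 (log2 fold change -0.62, SE 0.24, unadjusted p = 0.0242, limma adjusted p = 0.846).

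Genes that handle cystine after its export gave no call between the genotypes. Of 17 tested genes of cystine, cysteine and glutathione metabolism, none had an unadjusted limma p under 0.05, beside 5.17% of all tested genes. Their log2 fold changes were below 0 for 7 and above for 10, with a median of 0.05. They ran from -0.83 (SE 0.48) for *Slc1a4* to 1.31 (SE 0.78) for *Cth*. The most abundant was *Cdo1*, which oxidises cysteine, at 7895 ± 2146 in Rragc +/+ and 7716 ± 795 in Rragc S74N/+. *Cbs*, which feeds homocysteine into cysteine synthesis, had 4618 ± 1089 and 4154 ± 1134, and *Gclc*, the catalytic subunit that starts glutathione synthesis, had 2534 ± 588 and 2440.1 ± 454. The log2 fold changes of *Cdo1*, *Cbs* and *Gclc* were 0.01, -0.17 and -0.05.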

How the data were processed

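Liver RNA from 4 Rragc S74N/+ and 4 Rragc +/+ mice was made into 3′ end libraries (QuantSeq). Per the labels and the study's methods, the authors checked reads with FastQC 0.11.7, aligned them to GRCm38 with TopHat2 2.0.10, Bowtie 1.0.0 and SAMtools 0.1.19, counted them per gene and by strand with HTSeq 0.6.1 and scaled the counts by size factors. The deposited table holds a signal for 14506 genes, the size-factor normalized read count of each liver. Of these values 100% were whole multiples of 1 step per liver within a tolerance of 0.01, so whole reads were recovered, with size factors of 0.707 to 1.23. No molecular identifiers are stated for these libraries, so reads are not independent molecules.

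Differences were tested with limma 3.58.1 in R 4.3.3 (mean-variance trend) on log2(normalized count + 1), genotype as the only term, over 11174 genes (mean of 10 or more), with Benjamini-Hochberg adjustment at 0.05. This scale understates the change of low genes. The test called 1 gene, and on the recovered reads the quasi-likelihood test of edgeR 4.0.16 called 1 and DESeq2 1.42.0 called 10. Intervals are 95% intervals of the limma fit. Each library was taken as 1 mouse, and p-values measure the spread between these libraries. Other settings were pseudocounts of 0.1 and 5, genes unfiltered or kept from a mean of 50 upward, TMM rescaling, limma without the trend, age as a covariate or factor, 3-month-old mice alone, and each liver left out. Age as a factor was added after seeing the data. Gene positions were read from GENCODE M21 (GRCm38), a neighbouring release of the annotation counted against, and promoters are from RefSeq.

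The members and lists were chosen with earlier results of these data known. Named are the 10 genes, the 5 genes most and the 5 least correlated with *Ctns* within genotypes, list genes with an unadjusted p under 0.05 or otherwise the 3 most abundant, *Rragc*, and genes past the threshold. Of the genes most correlated with *Ctns*, 1 is not reported here. The clock genes, the marker genes other than *Gpx3*, *Abcb9*, *Slc11a1*, *Slc36a4*, *Slc1a4* and *Cth* were named after their values were seen. The scripts were tested on simulated counts.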

Additional observations from a re-analysis of the deposited data

Results flagged for a closer look

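Rragc S74N/+ replicate 3 held 988 normalized reads of *Npc1*, whereas the remaining 3 livers of that genotype held 395 to 430.2. Its gap to the nearest liver was 0.940 of the whole range of the group, which is more than Dixon's test allows for 4 samples. The 10 genes in 2 genotypes made 20 groups, and chance alone gives about 1 such value in that number. This liver came from the 2.5-month-old Rragc S74N/+ mouse, and it also had the lowest *Slc36a1* and *Laptm4a* of its genotype, at 13.4 and 917.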

How the results depend on the processing

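None of the 9 genes selected by role, and none of the 37 other lysosomal transporters, was called under any setting run, and the smallest adjusted p of any of the 9 was 0.274, for *Mcoln1*. The limma fit called 1 gene among all tested, and 0 without the trend, with age as a covariate, or in 3-month-old mice alone, where 603, 415 and 641 genes had an unadjusted p under 0.05. Age as a factor, chosen after seeing the data, called 3 and DESeq2 10. Leaving out each liver called 0 to 2, the 2 without Rragc S74N/+ replicate 3, where 1690 genes had an unadjusted p under 0.05 against 315 to 759 without another liver.

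*Ctns*, *Slc36a1*, *Mcoln1*, *Cln3*, *Slc15a4*, *Slc29a3* and *Laptm4a* kept their direction in all fits, but not their size. On the log2 scale, when each liver was left out, *Slc36a1* ranged from 0.07 to 1.25 (lowest without Rragc +/+ replicate 4 and highest without Rragc S74N/+ replicate 3), *Slc15a4* from 0.08 to 0.31 and *Slc29a3* from -0.82 to -0.41 (both nearest 0 without Rragc S74N/+ replicate 4), and *Laptm4a* from 0.04 to 0.26 (without Rragc S74N/+ replicates 2 and 3). *Mcoln1* ranged from -0.90 to -0.50 and *Cln3* from -0.57 to -0.33 when each liver was left out. The unadjusted limma p of *Mcoln1* then ran from 0.0192 (without Rragc S74N/+ replicate 3) to 0.154 (without Rragc +/+ replicate 1). In 3-month-old mice alone *Slc15a4* was at 0.05, *Slc29a3* at -0.36, *Laptm4a* at 0.25 and *Slc38a9* at 0.32. *Npc2* turned positive with age as a factor (0.031), edgeR (0.0012), TMM (0.0029) and 3-month-old mice alone (0.083), and ranged from -0.12 to 0.14 when each liver was left out. *Npc1* then ranged from -0.38 to 0.077 and *Slc38a9* from -0.044 to 0.29, the latter turning only without Rragc S74N/+ replicate 1. The causes were not tested. No paired analysis was possible because replicate numbers were given in sample order and tie no mouse to another. With 12 to 197 reads per liver in the genes of the low class, counting error widens every interval.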
